A study of Rattus norvegicus with 5 samples.

Results

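Expression of 10 antioxidant and metal-binding genes was followed across mild calorie restriction (CR) in rat small intestine: the superoxide dismutases *Sod1* and *Sod2*, catalase (*Cat*), the glutathione peroxidases *Gpx1* and *Gpx2*, *Prdx1*, *Txnrd1*, *Msra*, and the metallothioneins *Mt1* and *Mt2A*. Every gene probe (an Affymetrix probe set) whose annotated symbol was one of these 10 genes was taken. This rule uses no measured value, but the 10 genes were chosen with earlier results of these data known. This gave 12 of the 15866 gene probes on the array, for 10 of the 10959 genes it names. Of these, 10 carry a single symbol and 2 carry further symbols, namely 1367613_at (*Prdx1* and *Prdx1l1*) and 1371237_a_at (*Mt1*, *Mt1f* and *Ttr*), so that *Prdx1* has no gene probe of its own.

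The tissue came from male Wistar rats bought at 5 weeks of age and restricted from 6 weeks for 1 month. The control group received the full daily intake recorded in rats fed AIN-93G powdered diet ad libitum, and the other groups 5, 10, 20 or 30% less. All groups were fasted for 16 h before dissection. RNA from 5 rats was pooled for each group and each pool was hybridized to 1 array. No CR level therefore has a replicate, the spread between single rats cannot be seen, and for every gene below fewer cells of a type and less RNA per cell cannot be told apart.

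Superoxide dismutases turn superoxide into hydrogen peroxide, *Sod1* in the cytosol and *Sod2* in mitochondria. Catalase, the glutathione peroxidases and the peroxiredoxins then break the peroxide down, and thioredoxin reductase and methionine sulfoxide reductase return oxidized protein groups to their reduced state. Metallothioneins are small cysteine-rich proteins that bind zinc and copper. In the intestine they are induced by dietary zinc through the factor Mtf1, which binds metal response elements (MREs) in their promoters, and they also respond to glucocorticoids. *Gpx2* is the glutathione peroxidase of the gastrointestinal epithelium, and its promoter is a known target of Nrf2, which binds antioxidant response elements.

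Promoter sequence is shown for *Mt2A* and *Mt1*, since *Mt2A* and the gene probe that *Mt1* shares with *Mt1f* and *Ttr* had the highest mean ratios to the control among the 12 gene probes, and for *Gpx2*, which had the steepest slope over the restriction levels. The sequences are the 250 bases before the RefSeq start in build GRCr8, all from the minus strand and written 5′ to 3′: *Mt1* at chr19:10832976-10833225, *Mt2A* at chr19:10838709-10838958 and *Gpx2* at chr6:101230034-101230283. Capitals mark the MRE core (TGCACNC or TGCGCNC, either strand) in *Mt1* and *Mt2A*, and the antioxidant response element core (TGACNNNGC, either strand) in *Gpx2*.
Mt1: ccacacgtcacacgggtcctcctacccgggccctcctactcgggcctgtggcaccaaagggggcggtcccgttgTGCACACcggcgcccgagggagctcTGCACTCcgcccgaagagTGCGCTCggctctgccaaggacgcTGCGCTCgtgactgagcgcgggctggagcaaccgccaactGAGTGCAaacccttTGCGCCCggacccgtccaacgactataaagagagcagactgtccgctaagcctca
Mt2A: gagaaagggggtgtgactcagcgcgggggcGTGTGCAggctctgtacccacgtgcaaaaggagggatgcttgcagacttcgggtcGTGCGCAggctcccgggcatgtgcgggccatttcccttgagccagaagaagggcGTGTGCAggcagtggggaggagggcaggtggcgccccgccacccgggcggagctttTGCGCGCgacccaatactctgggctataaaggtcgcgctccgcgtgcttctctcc
Gpx2: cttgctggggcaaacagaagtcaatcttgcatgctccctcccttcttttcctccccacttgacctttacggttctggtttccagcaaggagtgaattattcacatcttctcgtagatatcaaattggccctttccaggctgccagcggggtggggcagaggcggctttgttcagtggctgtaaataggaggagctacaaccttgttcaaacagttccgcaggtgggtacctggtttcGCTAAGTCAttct

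Motifs were counted in windows from 250 bases before to 50 bases after the start, which were at hand for 9 of the 10 genes (all but *Msra*). The *Mt1* window held 6 MRE cores and the *Mt2A* window 4, and these were the only 2 genes of the 9 with a match. Over all 33469 rat promoter windows, 24.2% held at least 1 MRE core and 0.439% held 4 or more. The antioxidant response element core was found in 6 of the 9 genes (*Sod2*, *Prdx1*, *Gpx2*, *Txnrd1*, *Mt1* and *Mt2A*), against 12.1% of all windows. The 9 genes had 10 windows, since *Txnrd1* had 2, of which 1 held a match. A gene with 2 windows has more room for a match than a single window. A match is a stretch of letters and not a measured binding site.

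The signals are MAS5 intensities, which the authors scaled so that the trimmed mean is 132 on every array. Between arrays the log2 signals of the kept gene probes correlated at 0.971 to 0.988. As a check of RNA integrity, beta-actin was 3.18 times as bright at its 3′ as at its 5′ end on the 20% CR array and 2.20 to 2.41 times on the other 4, whereas the same ratio for *Gapdh* lay between 1.21 and 1.40 on all 5. Of the 8 enterocyte markers, 5 were measured, and their summed signal was 10913 on the 20% CR array and 6619.8 to 7459 on the others. Among them *Fabp2*, the intestinal fatty acid binding protein, had a signal of 984 in the control and of 1806 to 2383 in the CR pools (adjusted p = 0.183 in limma). *Apoa4* was also above the control at every CR level. The other measured enterocyte markers, *Alpi*, *Anpep* and *Apoa1*, were above it at 20% CR and below it at 5, 10 and 30% CR. The labels do not name the segment of small intestine. The 5 exocrine pancreas markers summed to 624.0 in the control and to 241 to 312 on the CR arrays. Only 1 of the latter, *Cela1*, passed the filter described next, and the others were too weak for it. *Cela1* gave 214.5 in the control and 149.5, 245.8, 207 and 184.5 at 5, 10, 20 and 30% CR, and so was above the control at 10% CR. No marker was at 0 on any array. To limit noise from weak signals, only the 7933 gene probes averaging at least 5.54 on the log2 scale (a signal of 46.5) were kept, and 11 of the 12 gene probes described here passed.

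**Figure D1:**
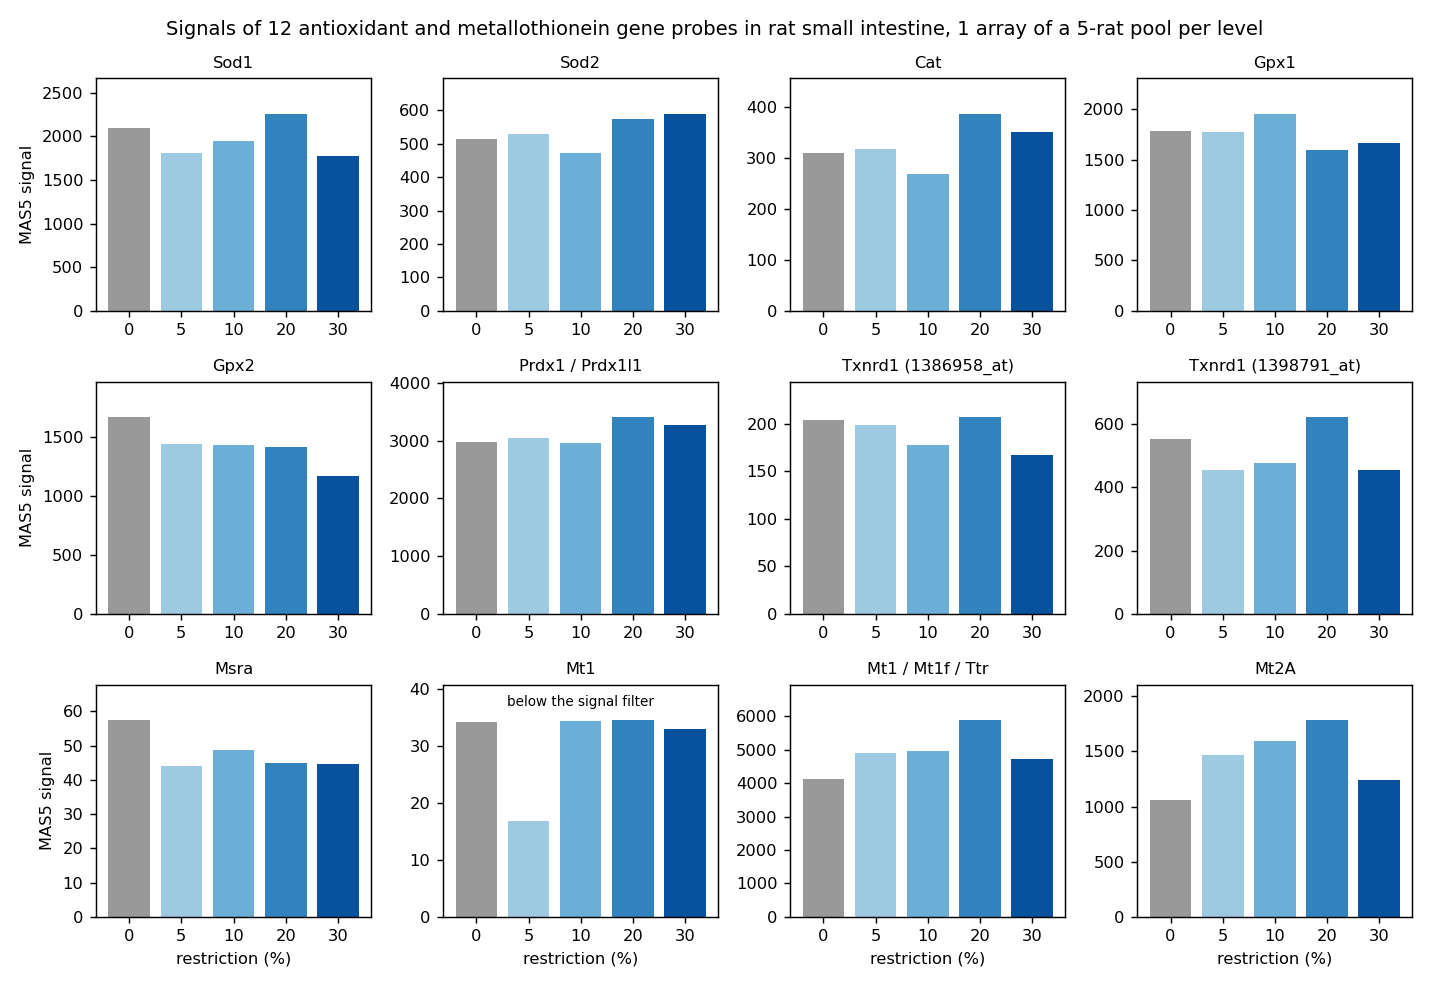
MAS5 signal (y axis, arbitrary units, starting at 0) of each of the 12 gene probes on the control array (grey) and the 5, 10, 20 and 30% CR arrays (blues), with 1 array of a 5-rat pool per bar and so no error bar. *Mt2A* and the gene probe of *Mt1*, *Mt1f* and *Ttr* stood lowest on the control array, and *Gpx2* and *Msra* stood highest there.

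The metallothionein gene probes above the filter were higher than the control at all 4 CR levels. *Mt2A* (1388271_at) had a signal of 1063 in the control and of 1463, 1598, 1784 and 1236 at 5, 10, 20 and 30% CR. Its signal thus stood highest at 20% CR and was closest to the control at 30% CR. The ratios to the control were 1.38-, 1.50-, 1.68- and 1.16-fold. On the log2 scale the mean over the 4 levels was 0.50 ± 0.22 (SD over levels, 4 pools), which lay at percentile 97.1 of the mean ratios of all kept gene probes.

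The gene probe shared by *Mt1*, *Mt1f* and *Ttr* (1371237_a_at) gave 4109 in the control and 4901, 4973, 5887 and 4728 at 5, 10, 20 and 30% CR. It followed the order seen for *Mt2A*, with the control lowest and 20% CR highest. Its log2 ratios were 0.25, 0.28, 0.52 and 0.20, with a mean of 0.31 ± 0.14 (SD, 4 pools) or 1.24-fold. This gene probe cannot be assigned to *Mt1* alone. The gene probe that carries *Ttr* as its only symbol, the gene of the thyroid hormone carrier transthyretin, was below the filter with 24.8 in the control and 21.2, 32.6, 38.4 and 25.5 on the CR arrays.

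*Mt1* by itself was measured by 1388267_a_at, which was below the filter on every array. Its signals were 34.2 in the control and 16.9, 34.5, 34.6 and 33.1 at 5, 10, 20 and 30% CR. Apart from the low value at 5% CR, these signals lay between 33.1 and 34.6. Without the filter, a setting added after the data were seen, its mean log2 ratio was −0.26 ± 0.49 (SE, limma, interval −1.36 to 0.85, adjusted p = 0.988). The higher metallothionein signals were therefore seen in *Mt2A* and in the shared gene probe, and at the low signal of the gene probe of *Mt1* alone a difference could not be resolved.

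*Mt2A* was further above the control than the shared gene probe by 0.21, 0.31, 0.23 and 0.01 on the log2 scale at 5, 10, 20 and 30% CR. To show how far 2 gene probes of a single gene differ on these arrays, the 2 brightest were compared for 614 genes. The median absolute difference of their log2 ratios was 0.25, 0.20, 0.23 and 0.28 at the 4 levels, and the 90th percentile was 0.68, 0.57, 0.62 and 0.69. The gaps between both metallothionein gene probes were within that range at every level. These gaps come from gene probes on the same RNA and leave out the spread between pools of rats.

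*Gpx2* (1374070_at) was lower than the control at all 4 CR levels. It gave 1670.4 in the control and 1437, 1429, 1411 and 1171 at 5, 10, 20 and 30% CR. The 3 milder levels were nearly equal, and the signal at 30% CR was the lowest, at 0.701 of the control. The log2 ratios were −0.22, −0.23, −0.24 and −0.51, with a mean of −0.30 ± 0.14 (SD, 4 pools). This mean lay at percentile 9.27 of all kept gene probes.

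*Gpx1* (1367576_at), the glutathione peroxidase found in most cells, did not share that pattern. It gave 1781 in the control and 1772, 1956, 1597 and 1663 at 5, 10, 20 and 30% CR. The control value lay inside the range of the CR values. Its mean log2 ratio was −0.03 ± 0.13 (SD, 4 pools), and the highest and lowest arrays differed 1.22-fold.

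The superoxide dismutases and catalase lay on both sides of the control. *Sod1* (1367641_at) gave 2097 in the control and 1811, 1952, 2259.8 and 1773 at 5, 10, 20 and 30% CR. It was lower at 3 levels and higher at 20% CR, with a mean log2 ratio of −0.11 ± 0.16 (SD, 4 pools). *Sod2* (1370172_at) gave 514 in the control and 530.4, 472, 574 and 589.9 at 5, 10, 20 and 30% CR. It was higher at 3 levels and lower at 10% CR, with a mean of 0.07 ± 0.14. *Cat* (1367995_at), the peroxisomal enzyme that breaks down hydrogen peroxide, gave 308 in the control and 317, 268, 386 and 351 on the CR arrays. It had the same pattern of signs as *Sod2* and a mean of 0.09 ± 0.23. Highest and lowest arrays differed 1.27-fold for *Sod1*, 1.25-fold for *Sod2* and 1.44-fold for *Cat*.

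The gene probe of *Prdx1*, a peroxiredoxin that is reduced again by thioredoxin, and of *Prdx1l1* had the smallest range. It gave 2977 in the control and 3039.5, 2957, 3412 and 3273 at 5, 10, 20 and 30% CR. All 5 arrays lay within 1.15-fold of each other, and the mean log2 ratio was 0.09 ± 0.09 (SD, 4 pools).

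*Txnrd1*, the cytosolic thioredoxin reductase, had 2 gene probes above the filter and so a repeat measurement. The first (1386958_at) gave 204 in the control and 199.5, 178, 208 and 168 at 5, 10, 20 and 30% CR. The second (1398791_at) gave 552 in the control and 454, 477, 623 and 456. Both were highest at 20% CR and lower than the control at the other 3 levels. Their log2 ratios at the same level differed by 0.25, 0.02, 0.15 and 0.0042 at 5, 10, 20 and 30% CR, no more than the median gap of the 614 genes given above to 2 decimals. The mean log2 ratios were −0.12 ± 0.14 and −0.15 ± 0.22 (SD, 4 pools).

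*Msra*, a methionine sulfoxide reductase that repairs oxidized methionine, was lower than the control at all 4 levels on a weak gene probe (1387531_at). It gave 57.5 in the control and 44.2, 48.6, 45.0 and 44.6 at 5, 10, 20 and 30% CR. The 4 CR arrays were close together and all below the control. The mean log2 ratio was −0.34 ± 0.06 (SD, 4 pools), at percentile 7.06 of all kept gene probes. Signals on 3 of the 4 CR arrays were below the filter value of 46.5, and the SD covers the CR pools but not the single control pool.

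**Figure D2:**
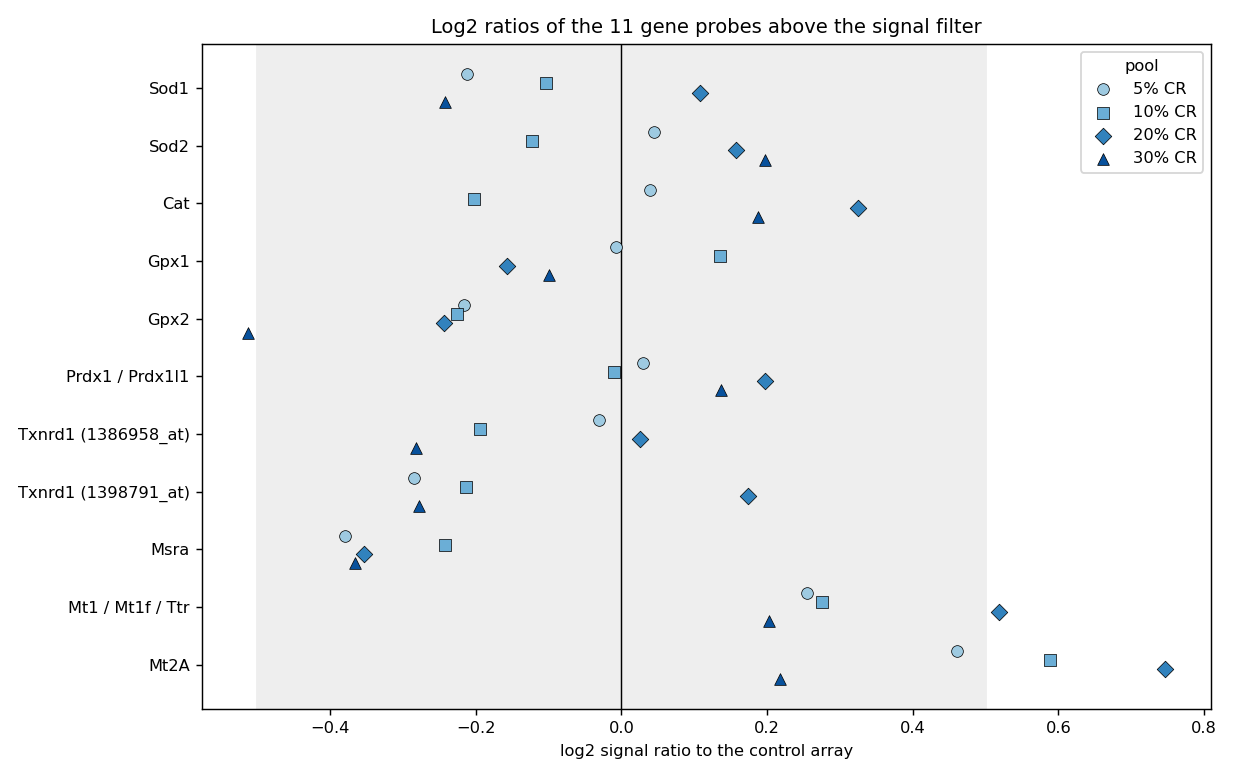
Log2 ratio of each CR pool to the control pool (x axis) for the 11 gene probes above the filter (y axis), 1 point per pool and level, with the grey band marking ratios between −0.5 and 0.5. Both metallothionein gene probes lay right of 0 at all 4 levels and *Gpx2* and *Msra* left of 0, and 4 of the points lay outside the band.

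Counted by size, with a log2 ratio of at least 0.5 (1.41-fold) as the threshold, few of the 11 gene probes passed at any level. At 5% CR none was higher or lower, where 5.62% of all kept gene probes were higher and 3.84% lower. At 10% CR *Mt2A* was higher and none was lower, against 4.73% and 3.45%. At 20% CR *Mt2A* and the gene probe of *Mt1*, *Mt1f* and *Ttr* were higher and none was lower, against 3.95% and 6.15%. At 30% CR none was higher and *Gpx2* was lower, against 7.51% and 5.61%. None passed in the same direction at all 4 levels, where 0.769% of all kept gene probes (61) were higher and 0.340% (27) lower. These counts have no test, since each level is a single array.

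By sign alone, 2 of the 11 were above the control at all 4 levels, as were 19.0% of all kept gene probes, and 2 were below it (*Gpx2* and *Msra*), as were 20.6%. The shares of the 11 were thus near those of the whole array. The median of the mean log2 ratios was −0.03 over the 11 and −0.0057 over all kept gene probes. The median fold between highest and lowest array was 1.30 over the 11 and 1.35 over all kept gene probes.

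The CR pools were next compared with the control pool in limma, taking the 4 CR levels as replicates of restriction and assuming that the single control pool varies like them. For *Mt2A* the difference was 0.50 ± 0.18 (log2, SE; 95% interval 0.09 to 0.92), with an unadjusted p of 0.022 and an adjusted p of 0.974. The shared metallothionein gene probe differed by 0.31 ± 0.15 (interval −0.03 to 0.65, adjusted p = 0.988). *Gpx2* differed by −0.30 ± 0.15 (interval −0.64 to 0.04, adjusted p = 0.988) and *Msra* by −0.34 ± 0.24 (interval −0.88 to 0.21, adjusted p = 0.988).

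The intervals of the remaining gene probes all included 0, and the widest reached from −0.35 to 0.53 (*Cat*). Over the 11 gene probes none passed an adjusted p of 0.05 in this limma comparison, and 0% of all kept gene probes did in either direction, the smallest adjusted p being 0.0778. At an unadjusted p under 0.05, *Mt2A* was higher and none was lower, against 2.71% of all kept gene probes (215) higher and 2.05% (163) lower. The fit has 3 residual degrees of freedom, and a p that misses the threshold here does not show that a gene did not respond.

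The limma slope over the restriction level, per 10% of restriction, was −0.14 ± 0.05 (log2, SE; interval −0.25 to −0.03) for *Gpx2*, with an unadjusted p of 0.019 and an adjusted p of 0.998. For *Cat* the slope was 0.10 ± 0.07 and for *Sod2* 0.08 ± 0.05. *Mt2A* had a slope of 0.06 ± 0.09, with its highest signal at 20% CR and a lower one at 30% CR, and its slope was −0.08 without the control pool, 0.34 without the 30% CR pool and 0.0088 without the 20% CR pool. The slope of the shared metallothionein gene probe was 0.07 ± 0.06, with 0.0041 without the control pool, 0.24 without the 30% CR pool and 0.04 without the 20% CR pool. In this trend too, 0% of all kept gene probes passed after adjustment in either direction, with a smallest adjusted p of 0.998. At an unadjusted p under 0.05, 1.55% (123) had a slope above 0 and 1.54% (122) a slope below 0, among the latter *Gpx2* as the only gene probe of the 11.

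**Figure D3:**
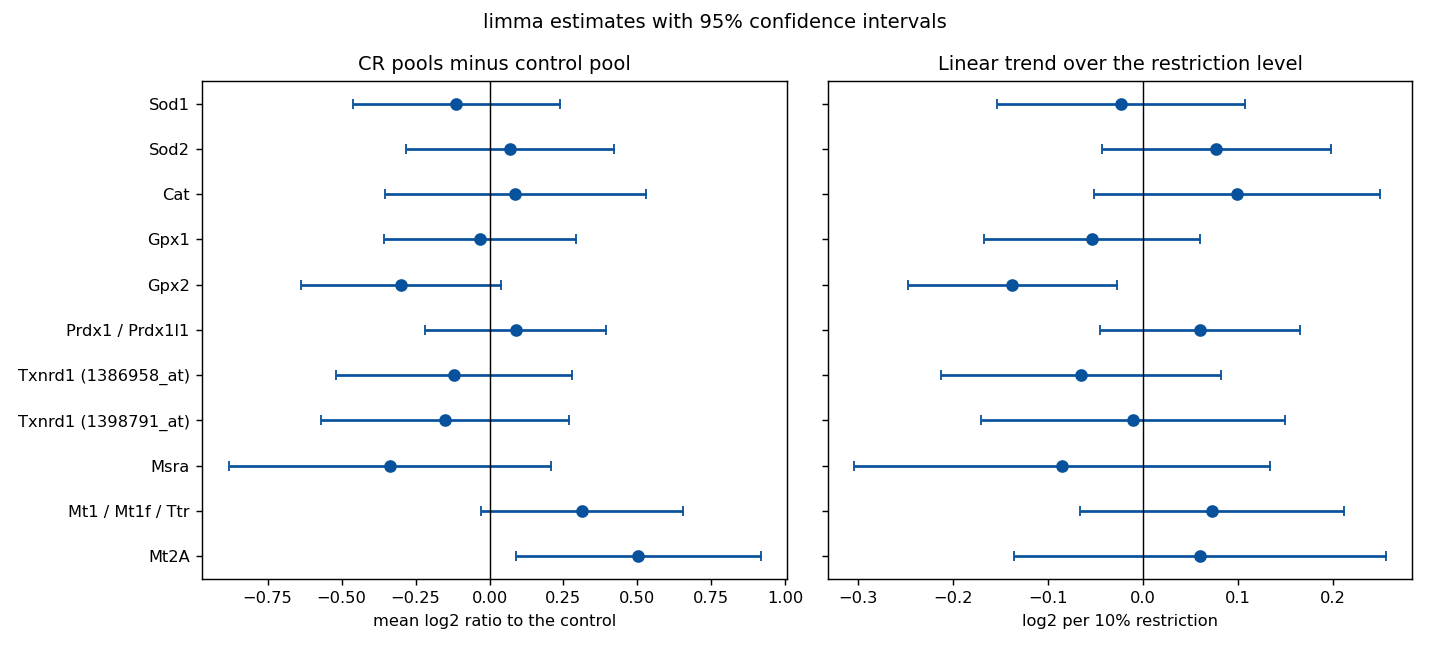
Limma estimates for the 11 gene probes, with the difference of the 4 CR pools from the control pool and the slope per 10% restriction (x axes, log2), points for estimates and lines for 95% intervals. The interval for *Mt2A* excluded 0 in the comparison with the control (0.09 to 0.92) and that for *Gpx2* in the slope (−0.25 to −0.03), and neither passed after adjustment over all kept gene probes.

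Of the 11 gene probes, 7 had their highest signal on the 20% CR array: *Sod1*, *Cat*, the gene probe of *Prdx1*, both gene probes of *Txnrd1*, and both metallothionein gene probes. Over all kept gene probes the share was 21.2%, and over those at or above quantile 0.75 of the array 26.7%. The median log2 ratio of the 11 was 0.16 at 20% CR, compared with −0.01, −0.12 and −0.10 at 5, 10 and 30% CR. That of all kept gene probes was −0.03 at 20% CR and 0.0048, 0.0059 and 0.0012 at 5, 10 and 30% CR. The count depended on the scaling. It was 7 with a constant added to the signals, 8 with median centring and 4 with quantile normalization (*Cat*, both *Txnrd1* gene probes and *Mt2A*), where the shares of all kept gene probes were 21.2, 30.97 and 23.7%.

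With quantile normalization the 20% CR ratio turned from 0.11 to −0.04 for *Sod1* and from 0.20 to −0.01 for the gene probe of *Prdx1*. The gene probe of *Mt1*, *Mt1f* and *Ttr* went from 0.52 to 0.26 and so fell below the size threshold. *Mt2A* kept 0.67. The 20% CR array was also the one with the high beta-actin 3′ to 5′ ratio and the high enterocyte markers given above. The enterocyte markers had a median log2 ratio of 0.64 there and of −0.11, −0.12 and −0.18 at 5, 10 and 30% CR, and the fibroblast markers −0.57 against 0.06, −0.01 and −0.46. The part of these differences in the 20% CR values was not tested. Without the 20% CR pool the mean log2 ratio of *Mt2A* was 0.42. The control array stood apart from all CR arrays for *Mt2A*, the shared metallothionein gene probe, *Gpx2* and *Msra*, as it did for *Fabp2* and for the summed exocrine pancreas markers, and the part of these in the results was not tested.

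**Figure D4:**
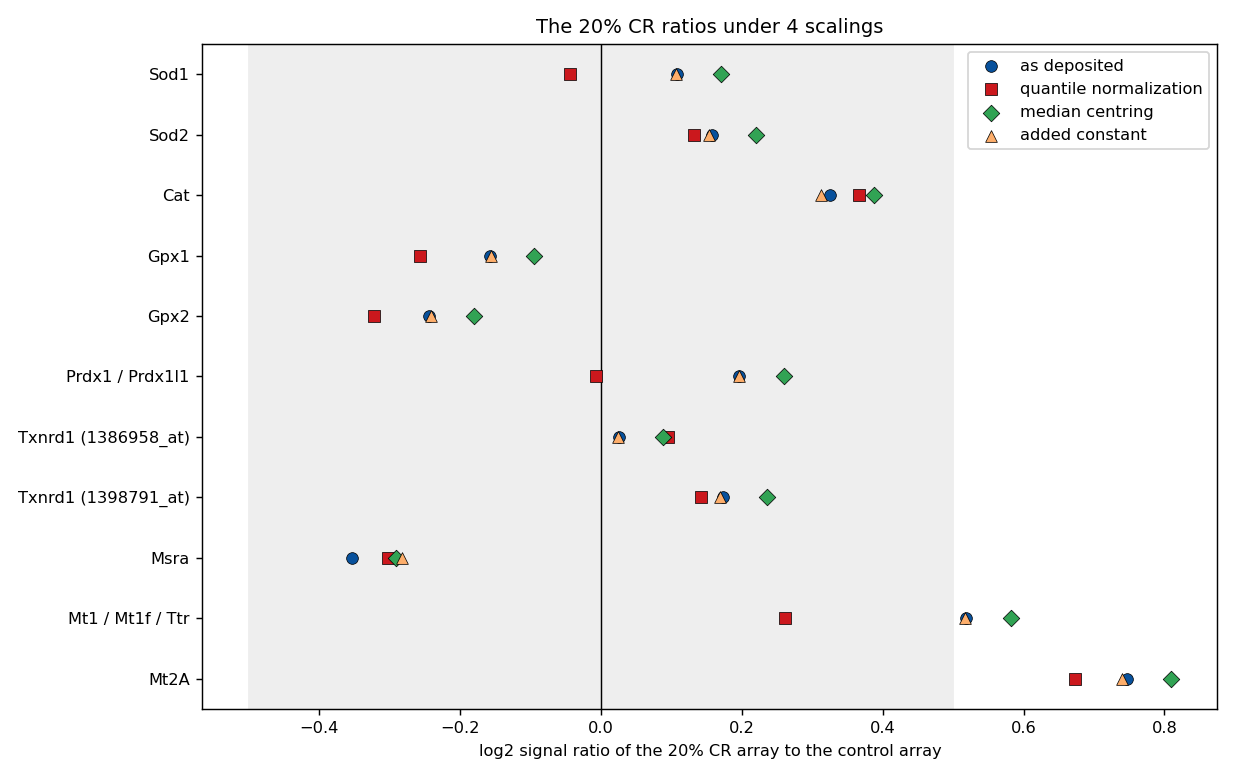
Log2 ratio of the 20% CR array to the control array (x axis) for the 11 gene probes (y axis) with signals as deposited and after 3 other scalings, with the grey band marking −0.5 to 0.5. *Sod1* and the gene probe of *Prdx1* changed sign under quantile normalization, and the gene probe of *Mt1*, *Mt1f* and *Ttr* moved from 0.52 to 0.26.

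Genes of the same pathways were listed to see whether their neighbours differed from the control, with 1 gene probe per gene. Of the 67 genes measured above the filter in 7 lists, none passed an adjusted p of 0.05 in limma in either fit. By sign alone, 28 of the 67 had a mean ratio above the control and 39 below. Over all kept gene probes 49.1% had a mean ratio above the control, and the splits of the single lists are to be read against that share. At an unadjusted p under 0.05, 2 were higher (*Selenop* and *Sgk1*) and 2 lower (*Hmox1* and *Slc39a4*) than the control, against 2.71% and 2.05% of all kept gene probes. By the same threshold 3 had a slope above 0 (*Selenop*, *Tsc22d3* and *Sgk1*) and 2 a slope below 0 (*Hmox1* and *Slc39a4*), against 1.55% and 1.54%. With 67 genes the counts against the control are near the shares of the whole array. The slope counts are above those shares, a difference that was not tested. Among 12 other genes of peroxide and superoxide removal, all measured, 5 had a mean ratio above and 7 below the control, and the list median was −0.04. The mean log2 ratio was lowest for *Prdx3*, the mitochondrial peroxiredoxin, at −0.23 and highest for *Gpx4*, which reduces lipid peroxides, at 0.13. Of the 10 measured thioredoxins, glutaredoxins and methionine repair genes 2 were above and 8 below, with a median of −0.08, from *Msrb2* at −0.37 to the glutaredoxin *Glrx* at 0.21.

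Of the 8 measured genes of glutathione synthesis and recycling, 5 were above and 3 below, with a median of 0.11. *Pgd*, an enzyme of the pentose phosphate pathway, was lowest at −0.27. *Ggt1*, which cleaves extracellular glutathione at the brush border, was highest at 0.54, with signals of 70.7 in the control and 119, 99.5, 132 and 71.3 at 5, 10, 20 and 30% CR. It was highest at 20% CR, as were 21.2% of all kept gene probes, and near the control at 30% CR. Its adjusted p in limma was 0.988. Of the 12 measured selenoprotein genes, 6 were above and 6 below, with a median of 0.0040 and *Selenow* lowest at −0.28. *Selenop*, the selenium transport protein, gave 1234 in the control and 1505, 1682, 1666 and 1947 on the CR arrays. It was above the control at every level, with a mean log2 ratio of 0.46 ± 0.15 (SE, adjusted p = 0.974 in limma).

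Of the 7 measured Nrf2 pathway genes, 1 was above and 6 below the control (49.1% of all kept gene probes were above), with a median of −0.13. The one above was *Nfe2l2*, which encodes Nrf2, at 0.11. *Hmox1*, the heme-degrading enzyme and a target of Nrf2, had a signal of 90.8 in the control and of 50.4, 54.7, 49.0 and 37.2 at 5, 10, 20 and 30% CR. It was the only gene of the 7 lists lower by at least 0.5 at all 4 levels, with a mean log2 ratio of −0.94 ± 0.27 (SE, adjusted p = 0.861 in limma). Over all kept gene probes 0.340% were lower by that size at all 4 levels. The *Hmox1* signals in the CR pools were close to the filter value of 46.5, and the one at 30% CR was below it. *Hmox1* was lowest at 30% CR, as were 21.1% of all kept gene probes.

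Of the 12 measured genes of zinc and copper handling, 5 were above and 7 below, with a median of −0.05 and *Crip2* highest at 0.29. *Slc39a4*, the intestinal zinc importer, gave 221 in the control and 167, 149.5, 154 and 120.2 at 5, 10, 20 and 30% CR. All 4 CR arrays were below the control, and the mean log2 ratio was −0.60 ± 0.21 (SE, adjusted p = 0.974 in limma). *Mt2A* and the shared metallothionein gene probe lay above the control at every level and *Slc39a4* below it, while the weak gene probe of *Mt1* alone was not above it at 5 and 30% CR. Of the 6 measured glucocorticoid-responsive genes, 4 were above and 2 below, with a median of 0.10. *Sgk1*, a kinase induced by corticosteroids, was the only gene of the 7 lists higher by at least 0.5 at all 4 levels, with 138 in the control and 287, 286, 522 and 307 on the CR arrays (mean log2 ratio 1.30 ± 0.30, SE; adjusted p = 0.496 in limma). Over all kept gene probes 0.769% were higher by that size at all 4 levels. *Fkbp5*, another glucocorticoid target, was lowest at −0.31, with −1.16 at 5% CR and 0.29 at 30% CR.

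**Figure D5:**
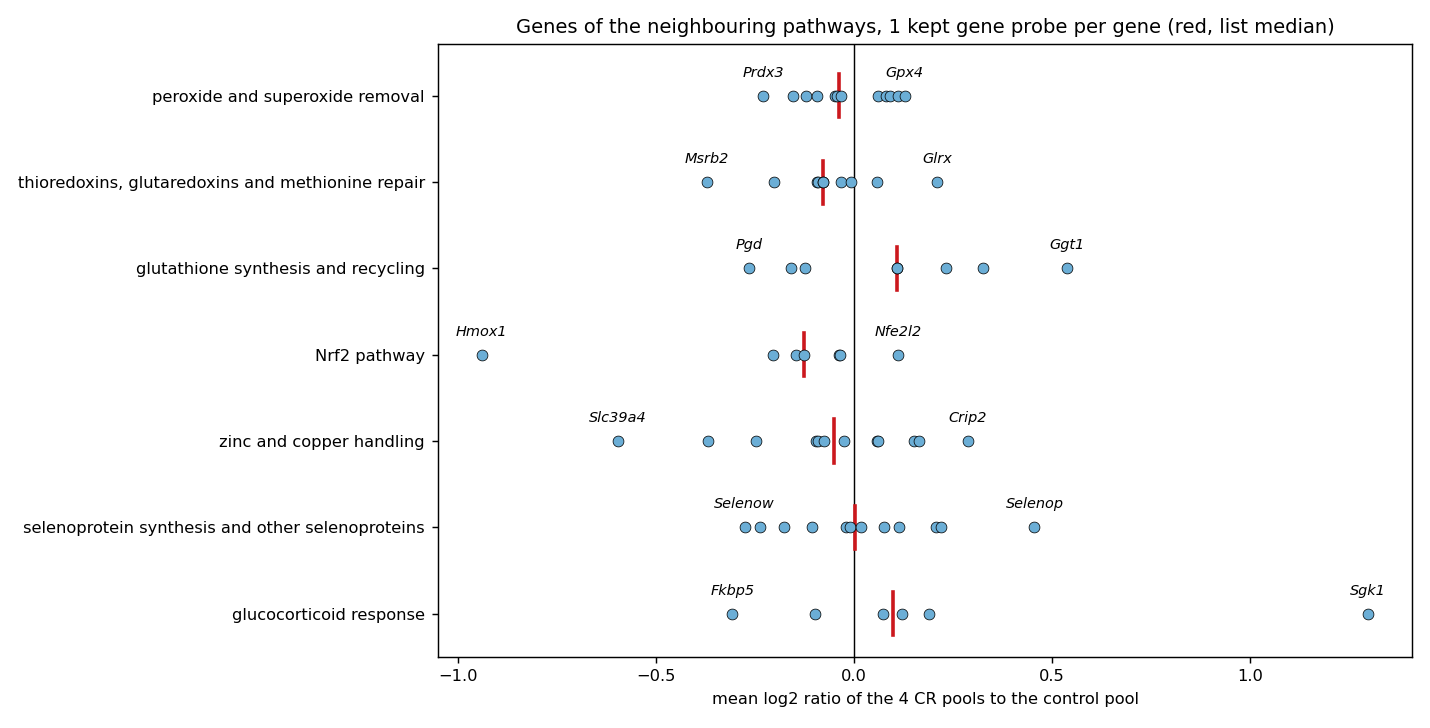
Mean over the 4 CR levels of the log2 ratio to control (x axis) for genes of 7 related lists (y axis), with 1 point per gene, a red line at each list median and the highest and lowest gene named. Most genes lay close to 0 and the list medians ran from −0.13 to 0.11, while *Hmox1* (−0.94), *Slc39a4* (−0.60), *Ggt1* (0.54) and *Sgk1* (1.30) lay furthest out.

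The gene probes whose 4 log2 ratios were most like those of each of 3 gene probes were found by the root mean square (RMS) difference over the 4 levels, among 6898 or 6899 other kept gene probes with a single symbol. For *Mt2A* they were *Slc35b1* (RMS difference 0.06 on the log2 scale), *Nectin2* (0.06) and *Ddx51* (0.07). The gene probe of *Mt1*, *Mt1f* and *Ttr* ranked 75 for *Mt2A*, with a difference of 0.22. In the other direction *Mt2A* ranked 609 for that gene probe. For the shared metallothionein gene probe itself the nearest were *Fos* (0.03), *Gstp1* (0.05) and *Acp1* (0.05). For *Gpx2* they were *Swi5* (0.02), *Habp4* (0.04) and *Rnpepl1* (0.04). With 4 values per gene probe, this likeness is a description only.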

How the data were processed

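Total RNA of small intestine from 5 rats per group was pooled, and each pool was hybridized to 1 Affymetrix rat 230 array. The deposited values are signal intensities on a linear scale that the authors computed with MAS5, which subtracts mismatch signal and scales each array. Detection and change calls are not analysed here. Arrays have no read depth, and their number (5) limits the precision.

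Signals were floored at 0.1 and taken to log2, and 57 array control probe sets were left out. Probe sets at or above the median mean log2 signal were kept. CR pools were compared with the control, and a linear trend over the restriction percent was fitted, in limma 3.58.1 (R 4.3.3; eBayes, trend = TRUE; two-sided p-values adjusted by Benjamini-Hochberg over 7933 probe sets). Both fits were also run on simulated data, and no result above rests on that run. The genes and lists were chosen with earlier results of these data known. Named list genes are the highest and lowest mean ratio of each list and any past the size threshold at all levels; likeness was run for *Mt2A*, the shared metallothionein probe set and *Gpx2*. Probe set names come from the platform annotation and promoters from RefSeq. The settings tried were median centring, quantile normalization, a constant of 13 added, other filters, sizes and variance priors, the rank of the level, and each pool left out.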

Additional observations from a re-analysis of the deposited data

How the results depend on the processing

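Over all kept gene probes, the counts past 0.5 (log2) in 1 direction at all 4 levels (61 higher, 27 lower) moved with the setting. They were 38 higher with an added constant, 693 and 443 without a filter, 16 and 6 with the stricter filter, 197 and 147 at a size of 0.3, and 10 and 1 at a size of 1. With each CR pool left out they ran from 68 to 117 higher (117 without the 20% CR pool, 104 without the 10% CR pool) and from 40 to 60 lower (60 without the 10% CR pool, 45 without the 20% and 43 without the 30% CR pool), where fewer levels had to pass. In limma, the adjusted calls against the control ran from 0 to 3 higher, the 3 without the 30% CR pool, and 0 lower. A smaller size or no filter can only add to the counts by size, and a larger size or the stricter filter can only take from them. The cause was not tested for the added constant or for the adjusted calls.

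For the antioxidant and metallothionein gene probes, 119 of 120 alternative values of the comparison with the control and 136 of 142 of the trend kept their direction and their side of the threshold. Keeping the side carries little weight, since 0% of all kept gene probes passed the threshold with all pools. The other filters and variance priors leave each estimate unchanged, so the direction could not turn there and these totals overstate the agreement. In the 7 exceptions the sign turned, and several slopes were larger than with all pools. *Gpx1* against the control was 0.0095 without the 20% CR pool (range over left-out pools −0.088 to 0.0095). Without the control pool the slope was 0.0029 for *Sod1*, 0.037 for *Txnrd1* (1398791_at) and −0.0832 for *Mt2A*. With all pools these were −0.02, −0.01 and 0.06. Without the 30% CR pool the slope was 0.0859 for *Sod1*, 0.0075 for *Txnrd1* (1386958_at) and 0.1258 for *Txnrd1* (1398791_at). The ranges of these slopes were −0.0594 to 0.0859, −0.0832 to 0.3388, −0.0936 to 0.0075 and −0.061 to 0.1258 for *Sod1*, *Mt2A* and the gene probes 1386958_at and 1398791_at of *Txnrd1*. The adjusted p of *Mt2A* against the control ran from 0.483 to 1.00 over its alternatives. No paired analysis was possible because each pool is of different rats and each group has 1 pool. Weak signals, as for *Mt1* and *Msra*, limit what these arrays can show.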

Other observations

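Other cell type markers, which the report does not use, are given here as values with no explanation, as the median of the mean log2 ratios of the kept markers. It was −0.17 for 4 goblet cell markers, 0.33 for 3 Paneth cell markers (0.93 at 10% CR), 0.09 for 5 enteroendocrine markers, −0.09 for 3 stem and dividing cell markers, 0.34 for 2 lymphocyte markers and 0.15 for 6 macrophage and mast cell markers. It was −0.16 for the 6 smooth muscle markers, all 6 with a mean ratio below 0, and 0.29 for 2 adipose and 0.18 for 2 enteric neuron markers. Over all kept gene probes, 49.1% had a mean ratio above 0. The single kept erythrocyte marker was at −0.27. None of these markers passed an adjusted p of 0.05 in limma, where 0 of 7933 gene probes did, while 215 were higher and 163 lower at an unadjusted p under 0.05.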
